A study of Rattus norvegicus with 2 samples.

Results

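Keratins, claudins and the genes of epithelial cell junctions were read on 2 one-colour NimbleGen expression arrays of AR42J, a line grown from a rat tumour of the exocrine pancreas. The set was listed by gene name, with no threshold on measured values but with earlier results of these data known, and held 47 genes: 5 keratins, 15 tight junction genes, 6 adherens junction genes, 7 desmosome genes, 3 gap junction genes, 8 genes of pancreatic duct epithelium and 3 regulators of epithelial genes. A target, the probe set that reads 1 transcript record, was named for 35 of them among the 15563 genes named on the arrays. The other 12 had no named target, and none of these 12 genes was named in the record titles of the 11292 targets in the authors' deposited table: Cldn2, Marveld2, Cgn, Pard6b, Ctnnd1, Dsp, Dsg2, Pkp3, Ppl, Sox9, Muc1 and Esrp1. The control array held RNA of untreated cells, and the TLC-S array that of cells given 200 µM taurolithocholic acid 3-sulfate, a sulfated bile acid, for 20 min. Both groups were the same line in the same medium, and the labels name no other agent or genetic change. Each group had 1 array, so no test was possible, every ratio compares 2 arrays, and array and treatment cannot be told apart.

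Epithelial cells are joined by several kinds of contact. In tight junctions, claudins and occludin form strands that seal the space between neighbouring cells and are tied to actin by the zonula occludens proteins. In adherens junctions, E-cadherin binds its like on the next cell and holds actin through beta-catenin and alpha-catenin. Desmosomes couple desmosomal cadherins, through plakoglobin, plakophilins and desmoplakin, to keratin filaments. Keratins 8 and 18 are the main filament pair of acinar cells, while keratins 7 and 19 mark the duct epithelium of the pancreas.

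Levels were read against the arrays' random control probes, whose summary intensity was 44.7 on the control and 40.5 on the TLC-S array. The median target had an intensity of 94.5 on the control array and 91.3 on the TLC-S array, and most targets were read by 5 probes. An intensity of 100, the value that all targets of the authors' deposited table reached on both arrays, was taken as the limit of a measured level. A fold is given where both arrays reached 100. Where 1 array did, the fold is a bound against 100, and below 100 on both no fold is given. Ratios are TLC-S over control, and over genes that reached 100 on at least 1 array their median was 0.25 on the log2 scale with an SD of 0.76 across genes, which are not replicates. Different targets of the same gene differed in log2 ratio with an SD of 0.42 over 588 genes.

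The labelled cell type was only partly borne out by marker genes. Of 15 measured acinar markers, 4 reached 100 on both arrays, the trypsinogens Prss1, Prss2 and Prss3 and the transcription factor Bhlha15. The other 11 acinar genes, digestive enzymes and Ptf1a among them, had a median of 48.2 on the control and 49.3 on the TLC-S array. Acinar intensities ranged from Ptf1a, at 26.5 and 49.3, to the trypsinogen Prss3, at 15742 and 2183. Leukocyte and B lineage markers reached 100 on both arrays for 15 of 16 genes, from Cd52 at 50.5 and 58.6 to Cd37 at 10929 and 7840, and their summed intensity was 29790 on the control and 28367 on the TLC-S array. Endocrine markers reached it for 2 of 9, from Neurod1 at 38.8 and 39.6 to Pax6 at 104 and 181. Fibroblast and stellate markers reached it for 0 of 7, from Lum at 32.4 and 49.6 to Acta2 at 118 and 47.1, and endothelial markers for 2 of 4, from Kdr at 73.4 and 27.9 to Pecam1 at 203 and 369. Their part in the results below was not tested.

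Many of the junction and keratin genes lay under the limit of 100. Of the 35 measured genes, 12 (34.3%) had an intensity of 100 or more on both arrays, against 65.3% of the 15563 named genes. Of all 26419 targets, named or not, 42.7% did so. Gene IDs and symbols came only with the authors' listed targets, all of which reached 100 on both arrays. Targets named in those ways therefore reached 100 by construction, which raises both shares of named genes. In the set these were the targets of Cldn12, Tjp1, Tjp3, Pkp2 and Grhl2. A further 5 reached 100 on the control array alone (Krt7, Krt18, Cldn3, Cldn7 and Aqp1), as did 3.99% of the named genes that reached 100 on any array. Jup alone reached it only on the TLC-S array, as 4.36% of those genes did. The remaining 17 were under 100 on both arrays, between 30.2 and 84.2 on the control and between 29.5 and 76.3 on the TLC-S array. Of these, 7 were below the random probes on the control array and 6 on the TLC-S array. The median of the 35 genes was 94.2 on the control array, 2.11 times the random probes, and 63.0 on the TLC-S array, 1.55 times. Over all named genes, whose naming favoured targets above the limit, these multiples were 5.28 and 6.95. The median of all targets, named or not, was 94.5 on the control and 91.3 on the TLC-S array.

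**Figure D1:**
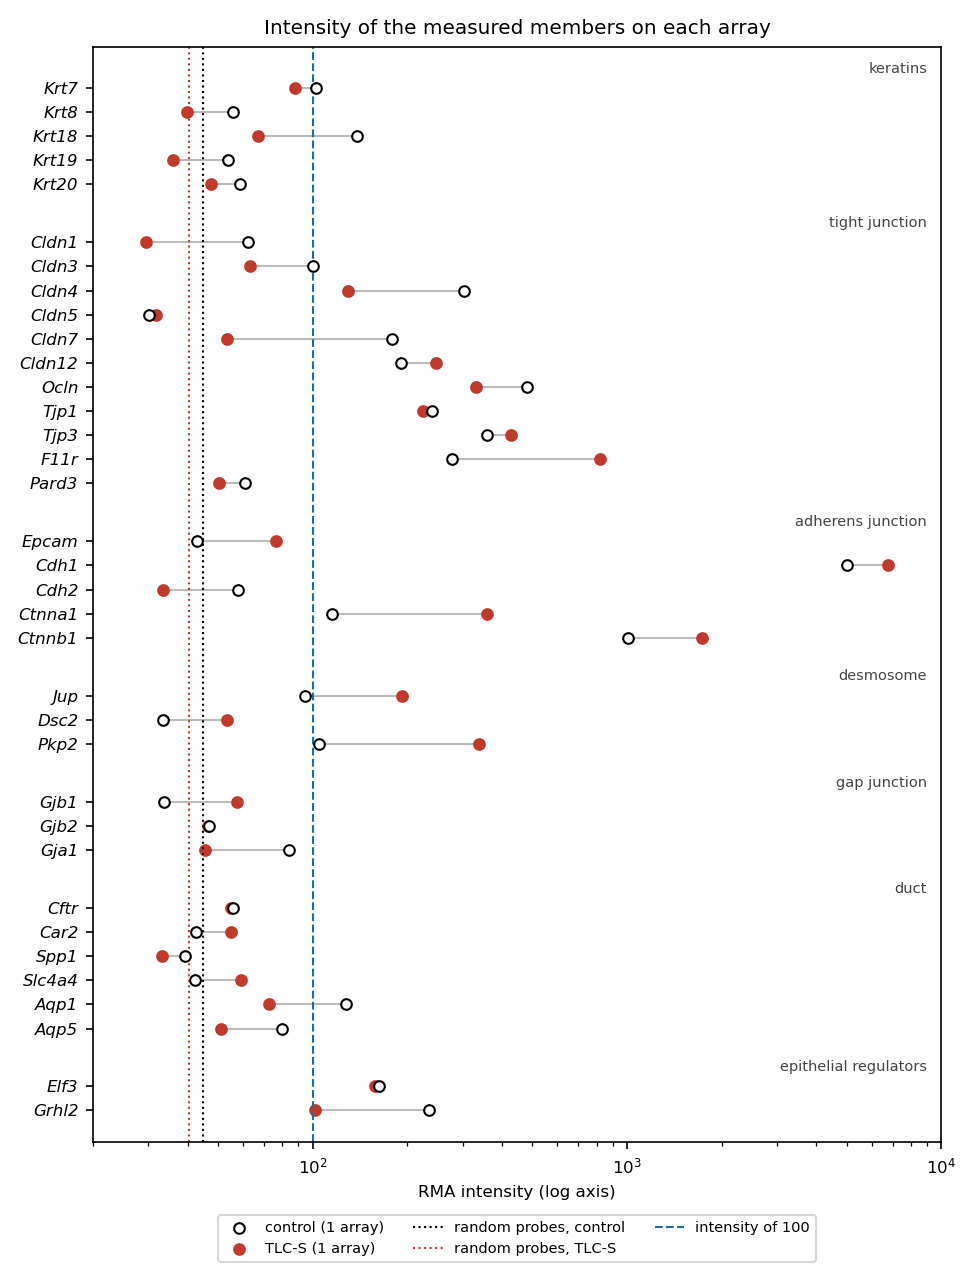
RMA intensity (log axis) of the 35 measured genes by class, with open circles for the control array and filled circles for the TLC-S array, dotted lines at the random probes (44.7 and 40.5) and a dashed line at 100. Cdh1 and Ctnnb1 stand far above the dashed line on both arrays, and the 5 keratins lie near or below it.

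Ratios were spread to both sides. Of the 35 genes, 14 were higher and 21 lower in TLC-S by any amount, where 59.3% of all named genes were higher and 40.6% lower. Among the 4471 named genes under 100 on both arrays, however, 45.0% were higher and 54.9% lower, and of the 17 genes of the set in that range 6 were higher and 11 lower. By the measured ratio, 4 genes were at least 2-fold higher (F11r, Ctnna1, Jup and Pkp2), against 8.67% of all genes. A ratio of at least 2-fold lower was measured for 5 genes (Krt18, Cldn1, Cldn4, Cldn7 and Grhl2), against 5.38% of all genes. Among the 18 genes at 100 or more on at least 1 array the counts were 4 higher and 4 lower, where the shares of all such genes were 11.4% and 6.18%. Cldn1, the fifth lower gene, lay under 100 on both arrays, a range in which 1.90% of named genes were at least 2-fold higher and 3.38% lower. Among the 12 that reached 100 on both arrays they were 3 higher and 2 lower, where the shares were 10.0% and 4.38%. The median log2 ratio of the 35 genes was -0.10, and that of all named genes was 0.15. The sign of the first depended on the range of signal: the median of the 12 that reached 100 on both arrays was 0.32, beside 0.25 for all genes in that range.

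**Figure D2:**
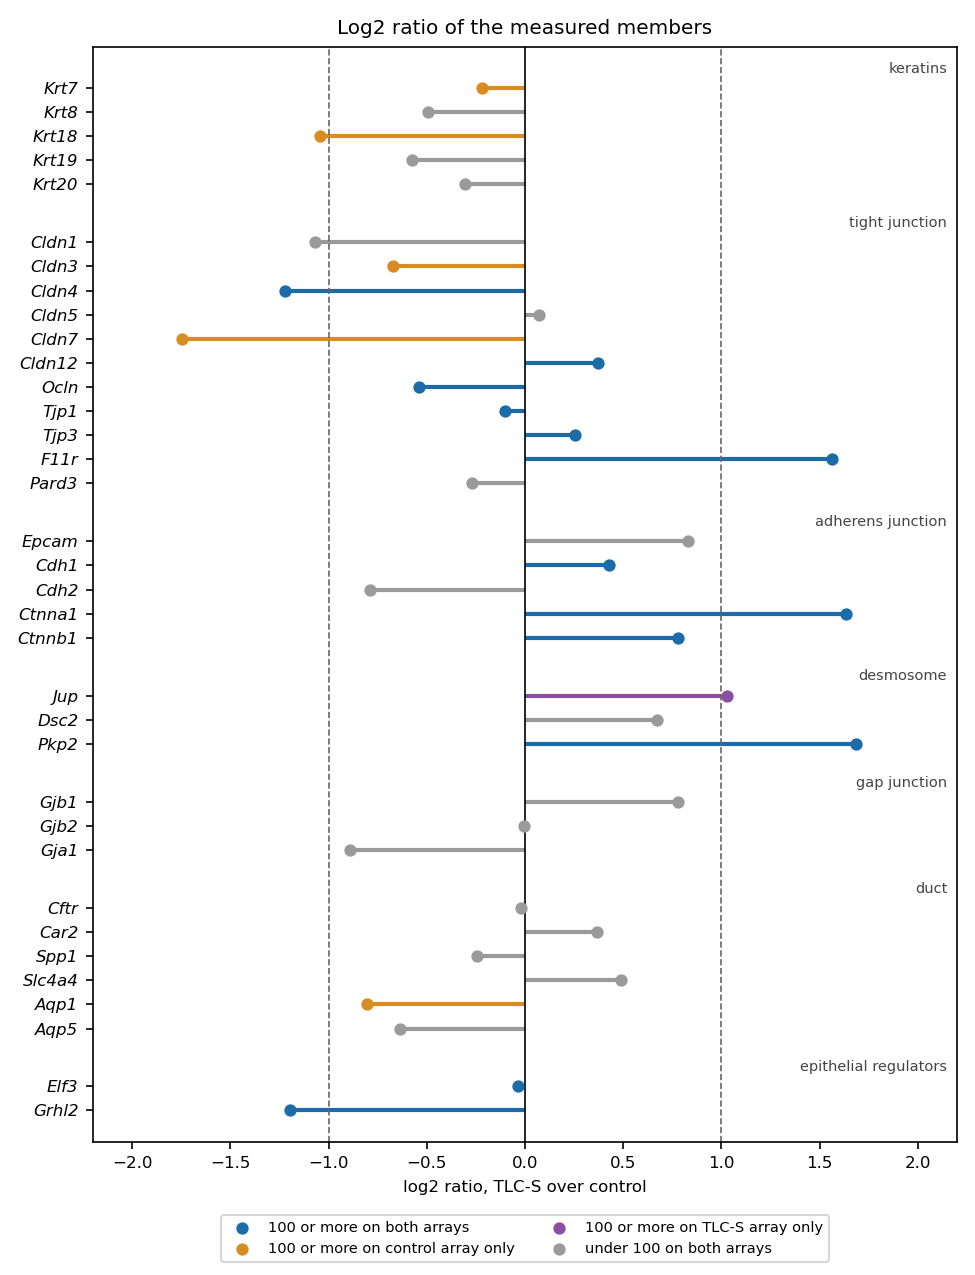
Log2 ratio, TLC-S over control, of the 35 measured genes by class, coloured by the arrays on which the gene reached an intensity of 100; dashed lines mark 2-fold. All 5 keratins lie to the left of 0 and all 3 desmosome genes to the right, while the tight junction genes lie on both sides.

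All 5 keratins had lower intensities in TLC-S, and none reached 100 on both arrays. Krt18, the type I partner of keratin 8, went from 138 on the control array to 67.0 on the TLC-S array, at least 1.38-fold lower. Krt7, a duct keratin, went from 102 to 87.8, at least 1.02-fold lower and so close to the limit on both arrays. Krt19, the other duct keratin, was at 53.7 and 36.0, which is 1.20 and 0.889 times the random probes. Krt8 was at 55.9 and 39.7, and Krt20, a keratin of gut epithelium, was at 58.6 and 47.5. Thus 1 of the keratin pair of acinar cells was above the limit on the control array and neither was on the TLC-S array. No median fold is given for the class, since no keratin reached 100 on both arrays. For the 3 under 100 on both arrays the nearest background is the 54.9% of named genes in that range that were lower.

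Of 11 further keratins listed, 9 were measured, of which 6 were lower and 3 higher, and none reached 100 on both arrays. Of the 6 under 100 on both arrays, 4 were lower, near the 54.9% of all genes in that range. Krt17, a keratin of basal and stressed epithelium, went from 266 to 71.3, at least 2.66-fold lower. Krt5, the type II keratin of basal cells, went from 37.6 to 141, at least 1.41-fold higher. These 2 genes fall outside the rule for named genes and were chosen after their values were seen, as were Krt8, Krt20 and Cldn1 among the genes under 100 on both arrays. Over all 14 measured keratins, 11 were lower in TLC-S and 0 reached 100 on both arrays. Of the 14, 9 were under 100 on both arrays, a range in which 54.9% of named genes were lower. Another 4 reached 100 on the control array alone, which makes them lower by definition. Of 6 other intermediate filament genes, 3 reached 100 on both arrays. Lmnb1, which encodes the nuclear filament protein lamin B1, went from 250.4 to 901, 3.60-fold higher. Nes, the filament nestin, went from 275 to 344, 1.25-fold higher. Vimentin, the filament of mesenchymal cells, was named for comparison after its values were seen, and at 38.4 and 35.05 it lay below the random probes on both arrays.

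Tight junction genes are given as claudins and other components, whose ratios overlapped. The median log2 ratio was -0.87 over the 6 measured claudins of the set, which ran from -1.75 to 0.37. It was -0.10 over the 5 other tight junction genes, which ran from -0.54 to 1.56. Of the 6 claudins, 2 were under 100 on both arrays. Another 2 reached 100 on the control array alone, which makes them lower by definition. Among genes that reached 100 on both arrays the median was -0.43 over 2 claudins and 0.08 over 4 other genes. These 2 claudins, Cldn4 at -1.22 and Cldn12 at 0.37, lay on opposite sides of 0. Cldn4, a claudin of many simple epithelia, went from 304 to 130 (6.79 and 3.21 times the random probes), 2.34-fold lower. Cldn7, found along the basolateral membrane as well as in the junction, went from 179 to 53.3, at least 1.79-fold lower, and lay at 1.32 times the random probes on the TLC-S array. Cldn3, a sealing claudin, was at the limit with 100.3 on the control array and at 63.0 on the TLC-S array, too close to the limit for a fold. Cldn1, another sealing claudin, was under 100 on both arrays, at 62.1 and 29.5. Cldn12, read through a predicted record, went the other way, from 191 to 248, 1.30-fold higher. The sixth, Cldn5, the claudin of blood vessels, lay below the random probes on both arrays.

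Over 15 measured claudins of 19 listed, 11 were lower and 4 higher in TLC-S, where 40.6% of all named genes were lower. Of the 15, 7 were under 100 on both arrays, a range in which 54.9% of named genes were lower. Another 3 reached 100 on the control array alone, which makes them lower by definition. By the measured ratio 6 were at least 2-fold lower and 0 at least 2-fold higher, where 5.38% and 8.67% of all named genes were, and the median log2 ratio was -0.80. Only 5 of the 15 reached 100 on both arrays, of which 2 were at least 2-fold lower (Cldn4 and Cldn14), and their median log2 ratio was -0.63. The other 4 of the 6 were under 100 on 1 array (Cldn7 and Cldn9, at least 1.79-fold and 1.65-fold lower) or on both (Cldn1 and Cldn8). Cldn14, a claudin of the inner ear and kidney, went from 2061 to 374, 5.51-fold lower (46.1 and 9.23 times the random probes). Cldn22, read through a predicted record, went from 115 to 187, 1.63-fold higher. Claudins at 100 or more on both arrays therefore lay on both sides of 0.

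**Figure D3:**
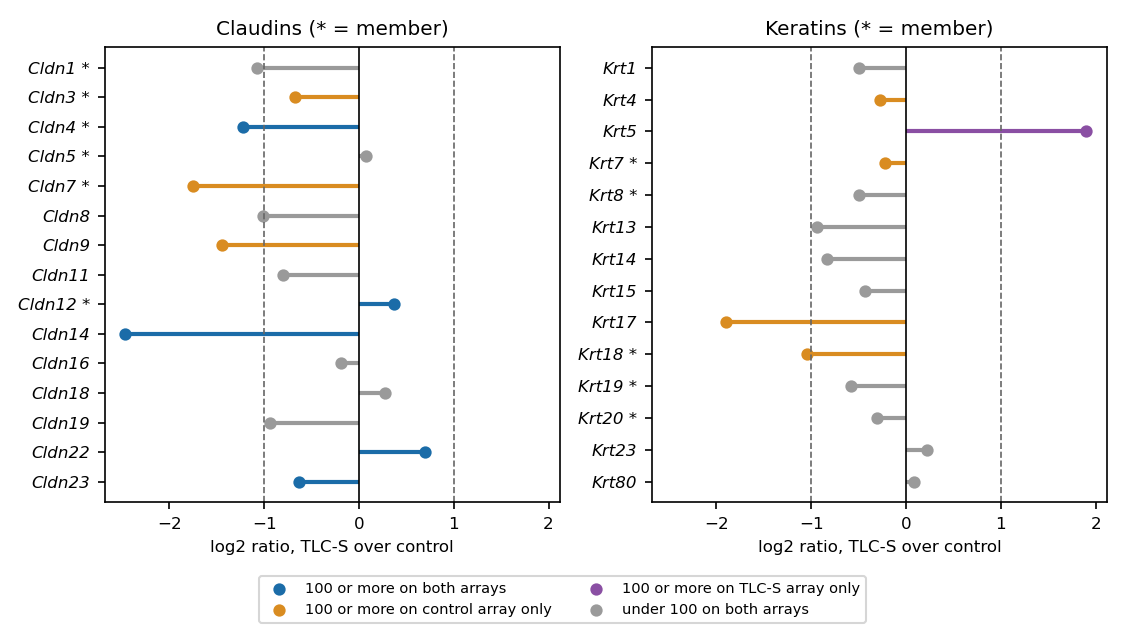
Log2 ratio, TLC-S over control, of the 15 measured claudins (left) and the 14 measured keratins (right), coloured by the arrays on which the gene reached an intensity of 100; an asterisk marks genes of the 47-gene set and dashed lines mark 2-fold. Among genes that reached 100 on both arrays Cldn14 is lowest at -2.46, and 0 of the 14 keratins are in that range.

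Of the 8 other tight junction genes of the set, 5 were measured and 4 reached 100 on both arrays. Ocln, the strand protein occludin, went from 479.6 to 330.3, 1.45-fold lower. F11r, the adhesion molecule JAM-A, went from 278 to 821 (6.22 and 20.3 times the random probes), 2.95-fold higher. Tjp1, the scaffold ZO-1 that binds claudin tails, was at 240.5 and 224, 1.07-fold lower. Tjp3, the scaffold ZO-3, was at 359 and 429, 1.19-fold higher, and its sign turned to a log2 ratio of -0.06 after a loess correction for signal. Both scaffolds were read through predicted records, and both log2 ratios were smaller than the SD of 0.42 between targets of a gene. Pard3, the polarity protein, lay under 100 on both arrays. F11r and the claudin genes Cldn4 and Cldn7 thus lay on opposite sides of 0 within the same junction.

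Of 22 further tight junction and polarity genes listed, 17 were measured and 10 reached 100 on both arrays. There were 10 higher and 7 lower, with a median log2 ratio of 0.13, near the 0.15 of all genes. Llgl1, a polarity protein of the lateral membrane, went from 254 to 527, 2.07-fold higher. Its paralogue Llgl2 went from 137 to 230.4, 1.68-fold higher.

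The repressors Snail and Zeb are known to bind the E-box CACCTG in promoters of epithelial genes. Promoters are shown for 3 tight junction genes with a measured level, Cldn7, Ocln and F11r, picked because they hold these letters. Of other tight junction genes that reached 100, Cldn3 and Tjp3 held 1 match each and Cldn12 and Tjp1 held 0. The letters are the 250 bases before the gene start in the RefSeq table of build GRCr8, 5′ to 3′ on the gene's strand, and capitals mark CACCTG read on either strand. Cldn7 lies at chr10:55188420-55188669 (plus strand), Ocln at chr2:33441199-33441448 (minus strand) and F11r at chr13:86405979-86406228 (plus strand).
Cldn7: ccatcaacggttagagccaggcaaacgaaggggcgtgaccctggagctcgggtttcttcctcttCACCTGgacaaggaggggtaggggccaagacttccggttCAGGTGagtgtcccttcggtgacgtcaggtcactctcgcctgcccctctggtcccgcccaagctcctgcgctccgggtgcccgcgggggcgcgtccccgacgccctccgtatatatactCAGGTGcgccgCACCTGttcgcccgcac
Ocln: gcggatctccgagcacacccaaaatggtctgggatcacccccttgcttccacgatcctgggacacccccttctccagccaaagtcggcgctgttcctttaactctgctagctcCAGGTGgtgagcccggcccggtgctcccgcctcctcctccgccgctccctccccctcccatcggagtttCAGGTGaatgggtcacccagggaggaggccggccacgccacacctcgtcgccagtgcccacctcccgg
F11r: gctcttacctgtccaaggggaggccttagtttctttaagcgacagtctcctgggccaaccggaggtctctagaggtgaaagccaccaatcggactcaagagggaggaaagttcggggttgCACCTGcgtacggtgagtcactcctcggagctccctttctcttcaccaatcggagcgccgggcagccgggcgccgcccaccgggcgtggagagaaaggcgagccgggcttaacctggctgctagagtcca

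The Cldn7 window held 4 matches, whose first bases lay 186, 147, 28 and 17 bases before the start. Ocln held 2, at 137 and 68 bases, and F11r held 1, at 130 bases. Of the 47 genes, 33 had a promoter in the table, and 17 of these (51.5%) held the E-box, where 15.9% of all 33469 promoters did. Base composition was not matched between these sets. Of measured genes, 13 promoters held it and 8 of these genes were lower in TLC-S, with a median log2 ratio of -0.04. Another 13 did not hold it, of which 8 were lower as well, with a median of -0.10. These counts include genes under 100 on both arrays, such as Krt8 with the letters and Cftr without them. They leave out the measured genes Krt7, Krt19, Cldn4, Cdh1, Cdh2, Ctnna1, Pkp2, Car2 and Grhl2, for which no promoter was available. A role of the E-box was not tested. The grainyhead motif AACCGGTT, read on both strands, was in 0 of 33 promoters of the set and in 0.146% of all promoters.

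Of the 5 measured adherens junction genes, 3 reached 100 on both arrays and 4 were higher in TLC-S, with a median log2 ratio of 0.78. Cdh1, which encodes E-cadherin, had an intensity of 5018 on the control and 6755 on the TLC-S array, 112 and 167 times the random probes, and was 1.35-fold higher. Ctnnb1, encoding beta-catenin, went from 1007 to 1726 (22.5 and 42.6 times the random probes), 1.71-fold higher. Ctnna1, encoding alpha-catenin, the link from beta-catenin to actin, went from 115 to 358 (2.57 and 8.84 times), 3.11-fold higher. The 3 core genes of the cadherin and catenin complex were thus above the limit on both arrays and higher in TLC-S, where 66.3% of all genes that reached it on both arrays were higher and 33.7% lower. Epcam, an adhesion protein of simple epithelia that is widely used as an epithelial marker, was under 100 on both arrays, at 42.9 and 76.3, or 0.960 and 1.88 times the random probes. The fifth gene, Cdh2, which encodes N-cadherin, was lower and also under 100 on both arrays.

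Of 16 further cadherins, nectins and actin linkers listed, 9 were measured and 6 reached 100 on both arrays. There were 7 higher and 2 lower, where 59.3% of all named genes were higher. The median log2 ratio was 0.36 over the 9 and 0.42 over the 6, beside 0.25 for all genes that reached 100 on both arrays. Vcl, encoding vinculin, which binds alpha-catenin under tension, went from 115 to 346, 3.02-fold higher. Zyx, encoding the actin-associated protein zyxin, went from 1303 to 1949, a log2 ratio of 0.58. Both were read through predicted records. Of 9 genes of hemidesmosomes and adhesion to the basement membrane, 6 were measured, 4 higher and 2 lower, beside 59.3% of all named genes higher. Itga6, an integrin subunit that binds laminin, went from 121 to 496 on the chosen target, 4.09-fold higher. Its other 2 targets gave log2 ratios of 0.03 and -0.17, so the 3 targets disagree. Itgb1, the common integrin beta subunit, went from 296 to 404, 1.36-fold higher.

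Only 3 of the 7 desmosome genes were measured, and all 3 were higher in TLC-S, as were 59.3% of all named genes. Their median log2 ratio of 1.03 is the measured ratio of Jup, under 100 on the control array. Pkp2, encoding plakophilin 2, a plaque protein of desmosomes, went from 105 to 337 on the chosen target, 3.22-fold higher, through a predicted record. The second Pkp2 target went from 107 to 141, a log2 ratio of 0.40, so the 2 targets share the direction but not the size. Jup, encoding plakoglobin, which serves both desmosomes and adherens junctions, went from 94.2 to 192, at least 1.92-fold higher. Dsc2, a desmosomal cadherin, was under 100 on both arrays. None of 8 further desmosome genes listed had a named target, so the class rests on few genes.

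Gap junction and duct genes gave little measured signal. The 3 connexins of the set, Gjb1, Gjb2 and Gja1, were under 100 on both arrays. Of 10 further connexin and pannexin genes, 9 were measured and 2 reached 100 on both arrays. Gja3 was at 131 and 112, 1.17-fold lower, and Gja4 was at 124 and 127, 1.03-fold higher. Of 6 measured duct genes, 2 were higher and 4 lower, and none reached 100 on both arrays. Among named genes under 100 on both arrays, 54.9% were lower. Aqp1, a water channel of ducts and vessels, went from 127 to 72.9, at least 1.27-fold lower. The chloride channel gene Cftr, the carbonic anhydrase Car2, osteopontin (Spp1), the bicarbonate cotransporter Slc4a4 and the water channel Aqp5 were under 100 on both arrays. With Krt7 and Krt19, the duct genes were therefore near the limit or the random probes, and Sox9 had no named target.

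Both measured regulators of epithelial genes reached 100 on both arrays. Grhl2, a grainyhead-like transcription factor known in mouse to activate Cdh1 and Cldn4, went from 234 to 102, 2.29-fold lower, through a predicted record. Elf3, an Ets factor of epithelial cells, was at 162 and 158, 1.03-fold lower. Of 20 further regulators and surface genes of epithelium, 13 were measured, and 4 reached 100 on both arrays. There were 9 higher and 4 lower, where 59.3% of all named genes were higher. Klf4, a transcription factor of differentiating epithelium, went from 366 to 163, 2.25-fold lower. Rab25, a small GTPase of epithelial vesicle transport, went from 168 to 326, 1.95-fold higher, through a predicted record. Epithelial genes far above the random probes included the surface protease gene St14, at 4571 and 4883, and the protease inhibitor gene Spint2, at 6144 and 3812 on the chosen target, which were named after their values were seen. A second Spint2 target was at 216 and 219, so the 2 targets disagree.

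Repressors of epithelial genes were measured in full. Of 7 listed, 5 were higher and 2 lower, where 59.3% of all named genes were higher, and the median log2 ratio was 0.40. Over the 3 that reached 100 on both arrays the median was 0.73, beside 0.25 for all genes in that range. Zeb1 went from 188 to 354, 1.88-fold higher, and Snai2, which encodes Slug, from 170 to 283, 1.66-fold higher. Zeb2 and Snai1, added after their values were seen, each reached 100 on 1 array. Zeb2 went from 110 to 52.6, at least 1.10-fold lower, and Snai1 from 86.4 to 142, at least 1.42-fold higher. The paralogues therefore did not all share a direction, and no ratio measured on both arrays reached 2-fold.

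**Figure D4:**
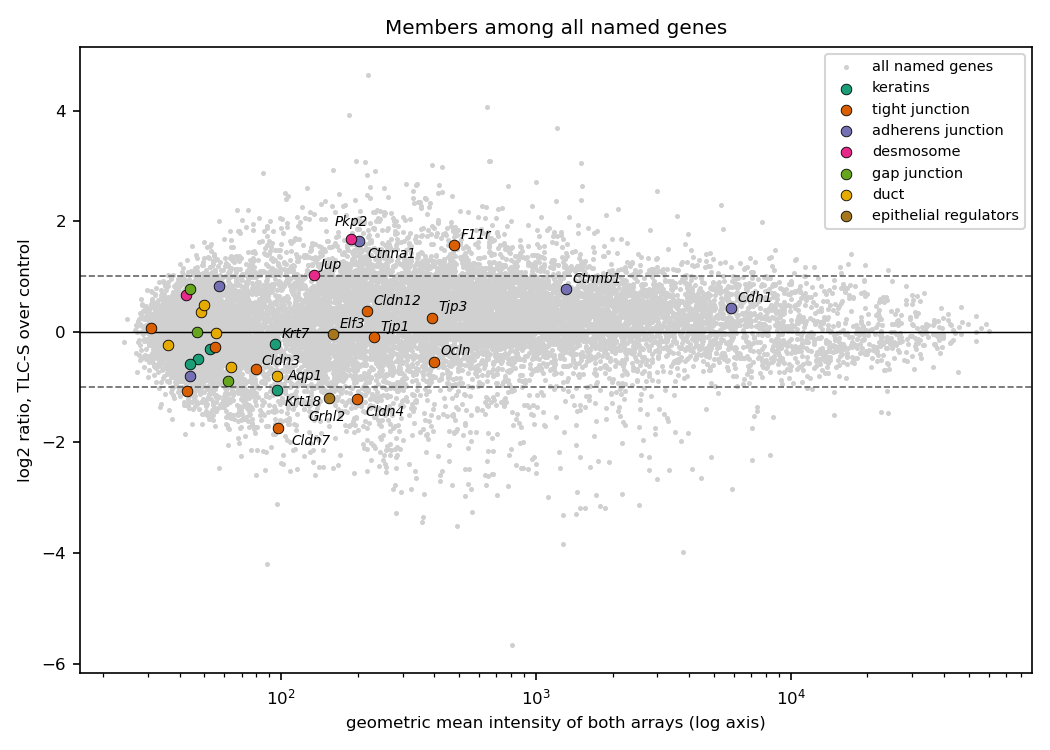
Log2 ratio, TLC-S over control, against the geometric mean intensity of both arrays (log axis) for all 15563 named genes (grey) and the 35 junction and keratin genes (coloured by class); dashed lines mark 2-fold. The labelled genes, which reached 100 on at least 1 array, lie inside the grey cloud. The labelled Pkp2 and Cldn7 and the unlabelled Cldn1, however, lie outside the central 95% of named genes of like signal. Of the 35 genes, those that reached 100 on both arrays run from Cldn4 at -1.22 to Pkp2 at 1.69.

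Of the 35 measured genes, 3 had a measured ratio outside the central 95% of named genes of like signal. Pkp2 lay above that range, and the claudin genes Cldn7 and Cldn1 lay below it. Cldn7 was under 100 on the TLC-S array and Cldn1 on both arrays, so neither ratio was measured above the limit on both. Of the 12 genes that reached 100 on both arrays, 1 lay outside that range. Between geometric mean intensities of 100 and 200 that range ran from -1.56 to 1.65 on the log2 scale, and Pkp2 lay just above it at 1.69 on its chosen target, though its second target at 0.40 did not. Between 200 and 500 it ran from -1.70 to 1.85, with F11r at 1.56 and Ctnna1 at 1.64 inside it. Cldn4 at -1.22 and Grhl2 at -1.20 also lay inside the range of their neighbours. The ratios of the other 11 of these 12 genes lay inside the central 95% of named genes of like signal. Whether any of these ratios reflects the treatment was not tested.

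The authors' deposited table of targets higher in TLC-S lists 3 genes of the set with its own folds, Ctnna1 at 3.11, F11r at 2.95 and Pkp2 at 3.22. The authors' deposited table of targets lower in TLC-S lists Cldn4 at 2.34 and Grhl2 at 2.29. In the authors' deposited gene ontology table, cell junction assembly counts 7 genes of 48 in the background, with the authors' p-value of 0.0101 and false discovery rate of 0.103. Cell-cell junction assembly in the authors' deposited table counts 3 of 11, with their p-value of 0.0159 and false discovery rate of 0.149. Ctnna1 is the only gene of the set that the table counts in either term. These p-values are the authors' and rest on gene lists from the same 2 arrays.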

How the data were processed

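Each group had 1 array, hybridised with Cy3-labelled cDNA made from the cells' RNA. Each array file gives 1 RMA intensity per target on a linear scale, as deposited by the authors. RMA is named without a version in the submitters' processing notes, and how background was corrected is not given in the sources used here. Fold ratios and p-values quoted from the authors' deposited tables are theirs, per the file headers. The authors' deposited tables of all targets and of the series hold the same intensities.

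Targets were named by RefSeq accession (9740 targets), gene ID (4955), the file's symbol (1600) or a synonym of it (44); 10080 stayed unnamed, 445 of them at 100 or more on both arrays. Gene IDs and symbols were known only for the authors' listed targets, all at 100 or more on both arrays. Each gene took the target with the highest mean log2 intensity. Log2 ratios were taken of the deposited intensities without further normalization; the alternatives were other sources of the values, other targets of a gene, median and loess centring (span 0.3, 3 robust iterations), low-value filters, an offset of 50 and other limits. Median ranges and counts carry no test. Scripts were tested on simulated data. No depth applies to arrays: their number limits the precision.

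The genes and lists were chosen with earlier results of these data known. The text gives values for every listed gene at 100 or more on at least 1 array and for Cdh1, Epcam, Krt7 and Krt19 at any level; from each further junction list it names the 2 largest absolute log2 ratios at 100 or more on both arrays, and from each marker list the highest and lowest gene. Python 3.11.15, pandas 2.3.3, numpy 2.4.6 and statsmodels 0.14.6 were used, and figures were drawn with matplotlib 3.10.9.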

Additional observations from a re-analysis of the deposited data

How the results depend on the processing

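The 12 that reached 100 on both arrays became 21 with a limit of 50 and 6 with a limit of 200. The 4 genes at least 2-fold higher became 8 at 1.5-fold and 2 at 3-fold. They became 3 with median centring, loess, an offset of 50 or the dimmest target of each gene. The count was also 3 in the authors' deposited table or among genes reaching 100 on both arrays. The 5 at least 2-fold lower became 10 at 1.5-fold and 1 at 3-fold, and 4 after loess or with genes at or above the median signal. They became 1 with an offset of 50 added to both intensities. The count was 2 in the authors' deposited table or among genes reaching 100 on both arrays, which leave fewer genes. The desmosome median of 1.03 became 1.69 under either of these, and 0.67 with the dimmest target of each gene, since Pkp2 then takes its second target. The duct median of -0.13 became -0.80 with genes at or above the median signal, which leaves Aqp1. 3 medians turned sign: the whole set to 0.32 and the tight junction genes to 0.08 under either as well, and the gap junction genes to 0.10 after loess. Of 161 alternative log2 ratios of 20 single genes, 3 moved by more than 0.42, the SD between targets of a gene: Cldn7 to -1.15 with the offset, and Pkp2 to 1.04 with the mean of its targets and 0.40 with the dimmest. The sign of Tjp3 turned after loess, to -0.06. A limit set from the spread of the random probes was not run, because the files give 1 summary value for them on each array. No array could be left out with 1 per group. No paired analysis was possible because the groups compared share only 1 replicate number.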

Other observations

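Targets whose record names a keratin-associated protein, the matrix proteins of hair that are not keratins, were grouped after their values were seen. Of 25 such targets among those at 100 or more on both arrays, 22 were lower in TLC-S, where 33.7% of named genes in that range were, with a median log2 ratio of -0.60 and a range from -1.68 to 1.07. There were 6 at least 2-fold lower and 1 at least 2-fold higher, where the shares of named genes were 4.38% and 10.0%. Their median intensity was 587 on the control and 398 on the TLC-S array, and after loess the median log2 ratio was -0.92. The targets are of a multigene family whose near-identical copies can share probes, so their count is uncertain. A second target whose record title mentions claudin 12 was named Gtpbp10 through its accession and went from 127 to 117, a log2 ratio of -0.12, where the Cldn12 target had a log2 ratio of 0.37.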
